A study of Mus musculus with 11 samples.

Results

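The 10 genes described here are secretory and transport genes of the choroid plexus, the secretory epithelium in the brain ventricles that makes most of the cerebrospinal fluid. They are Ttr, Enpp2 and Kl, whose products are secreted or shed, the folate receptor Folr1, the transporter and channel genes Slc4a5, Aqp1, Kcnj13, Kcne2 and Clic6, and the transcription factor Otx2. They were chosen by symbol, from 32285 genes in the feature tables, and each symbol matched 1 row. Their unique molecular identifiers (UMIs, each counting 1 captured transcript) were summed in each library over choroid plexus epithelial cells, which were gated as cells with at least 3 of the 6 genes Sostdc1, Prlr, Kcnj13, Clic6, Folr1 and Kl detected. The gate held 11315 of 125113 cells.

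Choroid plexus epithelium is a single layer of ciliated, tightly joined cells around a core of leaky capillaries. Its apical and basolateral carriers move sodium, bicarbonate, chloride and water from blood to ventricle, and the cells load the fluid with carrier proteins, folate and hormones. Otx2 is required for the formation of this epithelium and is still expressed in it in the adult.

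The libraries came from right brain tissue of mice that had undergone sham surgery or middle cerebral artery occlusion with reperfusion (MCAO/R), in which the artery was closed for 1 h, and they were made with the 10x Genomics 3′ kit after red cell lysis. There were 3 sham + WT libraries (replicates 1, 2 and 3), 3 sham + Lrg1-/- libraries (1, 2 and 5), 2 MCAO/R + WT libraries (1 and 2) and 3 MCAO/R + Lrg1-/- libraries (1, 2 and 5), and values are listed in this order of replicates. WT mice were male C57BL/6 mice of 8 to 10 weeks. Lrg1-/- mice lacked Lrg1, which encodes leucine-rich alpha-2-glycoprotein 1, in every cell, were backcrossed for 4 generations to C57BL/6N and were 3 months old. The genotypes also came from different suppliers, so that genotype cannot be told apart from age or source. The study's methods state neither the sex of the Lrg1-/- mice nor the C57BL/6 substrain of the WT mice. The design text counts as many mice as there are libraries, but no label ties a library to a mouse, and p-values measure the spread between these 11 libraries.

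Libraries kept between 3054 and 32130 cells after filtering and held between 37159497 and 171813031 UMIs. Lrg1, the deleted gene, gave 0 UMIs in choroid plexus epithelium and in endothelium in each of the 6 Lrg1-/- libraries. In endothelium of the WT libraries it gave between 154 and 526 UMIs after sham surgery, and 13654 and 11183 after MCAO/R. The 55 pairs of libraries shared between 5 and 146 cell barcodes, at most 1.15% of the smaller library.

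The libraries stood apart by genotype in how many choroid plexus cells they held. The gate took 228, 197 and 143 cells of the sham + WT libraries, 3036, 1464 and 923 of the sham + Lrg1-/- libraries, 106 and 31 of the MCAO/R + WT libraries and 1487, 2099 and 1601 of the MCAO/R + Lrg1-/- libraries. As a share of kept cells these were 1.80% ± 0.256 (SD, n = 3), 30.7% ± 3.52 (SD, n = 3), 0.692% ± 0.605 (SD, n = 2) and 14.0% ± 9.89 (SD, n = 3). The geometric mean share was 17.1-fold higher in the sham + Lrg1-/- group than in the sham + WT group, and 21.1-fold higher in the MCAO/R + Lrg1-/- group than in the MCAO/R + WT group. After MCAO/R it was 0.303-fold that after sham surgery in WT and 0.375-fold in Lrg1-/- libraries. Single libraries moved the ratios that involve the MCAO/R groups. The MCAO/R + WT shares were 1.12% and 0.264%, and the ratio between genotypes after MCAO/R was 43.6-fold without replicate 1 and 10.3-fold without replicate 2 of that group, and 32.1-fold without MCAO/R + Lrg1-/- replicate 5. The ratio between surgeries in WT was 0.147-fold and 0.625-fold without the same MCAO/R + WT libraries, and that in Lrg1-/- mice was 0.570-fold without MCAO/R + Lrg1-/- replicate 5. After sham surgery the genotype ratio stayed between 15.998-fold and 18.4-fold whichever library was left out. Without cells that carry at least 3 markers of another type, the mean share in the sham + Lrg1-/- group was 4.83% ± 2.54 (SD, n = 3), the ratio between genotypes was 6.48-fold after sham surgery and 15.998-fold after MCAO/R, and the Lrg1-/- groups overlapped. The shares did not overlap between the groups of the other comparisons under this setting, nor between those of any of the 4 with all gated cells. Exact two-sided permutation tests gave p = 0.1 for 3 against 3 libraries and p = 0.2 for 3 against 2, with all gated cells. These are the smallest that this test, which doubles the p of a single side, allows for such numbers. After adjustment the tests gave 0.2 for each of the 4 comparisons. How many choroid plexus cells a dissection takes with it was not measured, so that more cells in the tissue and more ventricle in the sample cannot be told apart. The deposited barcodes differed as well. The cell filters passed 33107 of 36461 sham + WT, 18386 of 30150 sham + Lrg1-/-, 22411 of 23741 MCAO/R + WT and 58533 of 65452 MCAO/R + Lrg1-/- barcodes. The lowest UMI count of a barcode was 500 in each WT library and 551 to 770 in the sham + Lrg1-/- libraries and MCAO/R + Lrg1-/- replicate 1. The part of this in the shares was not tested. Cells of other types may also pass the gate with choroid plexus RNA free in their droplets, and their number was not tested. Among microglia outside the gate, 10.3% to 16.2% held a Folr1 UMI in Lrg1-/- libraries and 0.556% to 2.19% in WT libraries.

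The gated cells held choroid plexus transcripts at high levels in every library, and most of them also held transcripts of other types. Between 58.7% and 71.0% of gated cells in WT libraries and between 61.3% and 90.0% in Lrg1-/- libraries carried at least 3 markers of another type. Ttr, which the gate did not use, was detected in 99.3% to 100% of gated cells, but detection alone does not mark a cell of this type, since 99.98% to 100% of microglia in Lrg1-/- libraries held a Ttr UMI as well. Ttr made up a median of 16.2% to 23.2% of a cell's UMIs in WT libraries and 6.89% to 21.5% in Lrg1-/- libraries. The level of all 10 genes was highest in choroid plexus epithelium among the cell types measured, with medians over libraries between 2.03-fold (Otx2) and 34.0-fold (Kcne2) above the next cell type. Each median is over the libraries with at least 20 cells of a type, so that those of types measured in few libraries, such as red cells in the 6 Lrg1-/- libraries, rest on other libraries than the choroid plexus medians. Of the gate genes 4, Kcnj13, Clic6, Folr1 and Kl, are themselves among the 10, so that the gate sets a part of their detection in these cells.

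Levels are given as CPM, the UMIs of a gene scaled to 1000000 UMIs in the sum of a library, with the TMM factors of edgeR for genes in choroid plexus epithelium and plain totals for marker sums and other cell types. The kit counts 1 end per transcript, so that levels of different genes are set side by side without division by length. In the sham + WT group the order was led by Ttr at 169079 ± 14806 (SD, n = 3), followed by Enpp2 at 10114 ± 1154. Folr1 (663 ± 54.3), Kl (625 ± 47.0) and Kcnj13 (597 ± 32.8) came next and overlapped with their neighbours, then Clic6 (324 ± 26.8) and Kcne2 (260 ± 49.3), which also overlapped. Otx2 (163 ± 8.27), Slc4a5 (126 ± 38.5) and Aqp1 (80.1 ± 15.1) were lowest, and each overlapped with the next in the order.

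**Figure D1:**
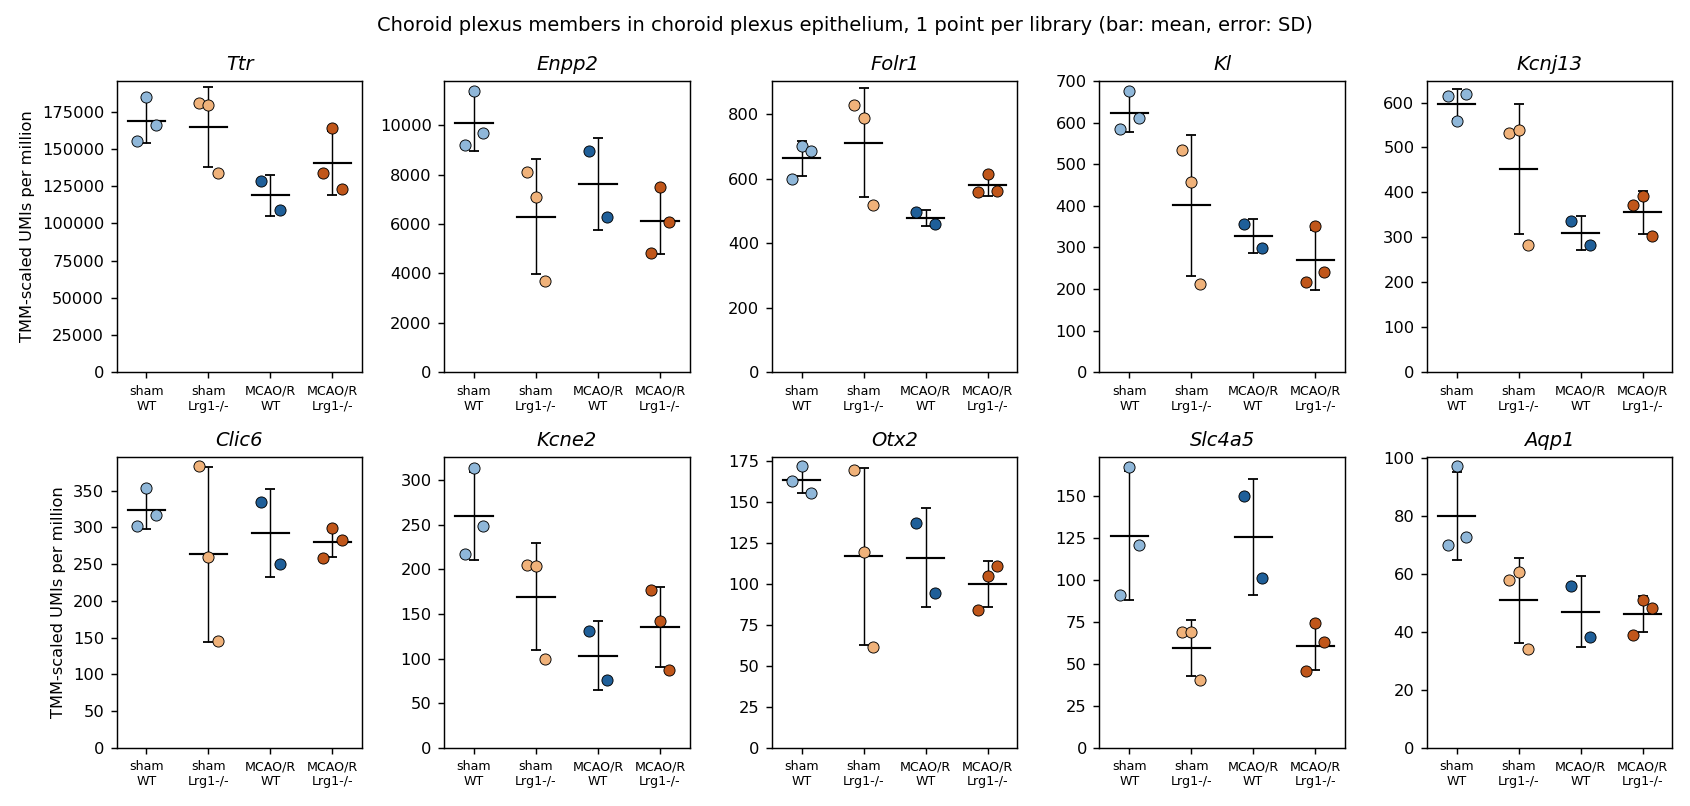
Level of each of the 10 genes in choroid plexus epithelium (y axis, TMM-scaled CPM, linear from 0) in each library, 1 point per library, with the group mean as a bar and the SD as the error. Slc4a5 lies between 40.4 and 74.4 in all 6 Lrg1-/- libraries and between 91.0 and 167 in all 5 WT libraries, whereas the Ttr points of both genotypes overlap within each kind of surgery.

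Slc4a5 encodes an electrogenic sodium bicarbonate cotransporter of the apical membrane and was the 1 member called between genotypes. It was lower in Lrg1-/- than in WT libraries after both kinds of surgery. Of all genes tested, 25.2% were called after MCAO/R (12% lower) and 21.1% after sham surgery (10.3% lower). The Slc4a5 call did not hold under every alternative, as given below. The start of Slc4a5 in RefSeq is shown because it was the member called. Beside it stands 1 of several Otx2 starts, the one whose window holds a match to TAATCC, the letters that the Otx2 product binds. Both run from 250 bases before to 50 bases after a start, 5′ to 3′ on the gene's strand, from the RefSeq entries on GRCm38.p6, with TAATCC or its reverse complement GGATTA in capitals where found.
Slc4a5, chr6:83237125-83237424, plus strand: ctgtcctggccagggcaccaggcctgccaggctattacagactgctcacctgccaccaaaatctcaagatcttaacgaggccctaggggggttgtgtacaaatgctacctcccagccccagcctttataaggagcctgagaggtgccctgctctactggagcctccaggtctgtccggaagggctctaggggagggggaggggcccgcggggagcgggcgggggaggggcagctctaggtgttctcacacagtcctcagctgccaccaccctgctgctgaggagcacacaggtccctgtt
Otx2, chr14:48665060-48665359, minus strand: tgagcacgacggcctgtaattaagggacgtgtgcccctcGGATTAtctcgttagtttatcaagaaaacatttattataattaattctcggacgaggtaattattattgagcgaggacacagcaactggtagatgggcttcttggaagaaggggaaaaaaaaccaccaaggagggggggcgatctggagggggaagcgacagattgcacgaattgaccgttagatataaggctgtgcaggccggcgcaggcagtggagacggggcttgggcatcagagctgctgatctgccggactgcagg
The Slc4a5 window holds neither form, and 62.7% of its bases are G or C. The Otx2 window holds GGATTA once, its first base 211 bases before the start, and 51.0% of its bases are G or C. Of the 10 windows found for 6 of the members this was the 1 with a match, and 2320 of the 32851 promoters searched (7.06%) have one. No window for Ttr, Folr1, Enpp2 or Clic6 was among those searched, which does not show that RefSeq lacks a start for them. A match is a run of letters and not a measured binding site.

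In GENCODE M21 on GRCm38, the Slc4a5 gene spans chr6:83219828-83304945 on the plus strand, and the window above lies within it. Its levels were 91.0, 167 and 121 CPM in the sham + WT libraries and 69.3, 69.0 and 40.4 in the sham + Lrg1-/- libraries. After MCAO/R they were 150 and 101 in the WT libraries and 45.8, 74.4 and 62.9 in the Lrg1-/- libraries. Every Lrg1-/- library was below every WT library after either surgery. These levels rest on 119 to 596 Slc4a5 UMIs per WT library and 489 to 1625 per Lrg1-/- library.

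The fitted difference was -1.05 on the log2 scale (SE 0.32, 95% interval -1.74 to -0.37) after MCAO/R, with an adjusted p of 0.0296 in edgeR's quasi-likelihood test. After sham surgery it was -1.09 (SE 0.29, 95% interval -1.71 to -0.47, adjusted p = 0.0198). The interaction of genotype and surgery was 0.03 (95% interval -0.89 to 0.96), so that a difference of the genotype effect between surgeries was not detectable at this spread. A gene was called at an adjusted p below 0.05 and a change above 1.28-fold. Genes called in this way were common in these comparisons, 25.2% of 17102 genes tested after MCAO/R (12% lower in Lrg1-/-) and 21.1% after sham surgery (10.3% lower), and 1 of the 10 members was. These shares rested on single libraries, since 65 genes were called after MCAO/R without MCAO/R + WT replicate 2 and 1054 after sham surgery without sham + WT replicate 2, against 4306 and 3605 with all libraries.

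The Slc4a5 call depended on the cells, the libraries and the model terms chosen. Of 27 alternatives, 16 kept the call after MCAO/R and 18 after sham surgery. It was lost in both comparisons with a limit of 10% on mitochondrial UMIs (-0.56, adjusted p = 0.179, and -0.42, adjusted p = 0.28), with a gate at 2 of the 6 genes (-0.70 and -0.50), with a gate on 8 other genes that holds no member (-0.64 and -0.71), and without cells that carry at least 3 markers of another cell type (-0.94 and -0.15). With every cell thinned to 1000 UMIs before gating, the value was -1.35 after MCAO/R and 0.12 after sham surgery, where its sign turned. It was also lost when 1 library was left out, and where this left the MCAO/R + WT group with 1 library, that library was assumed to vary as those of the other groups did. The difference after MCAO/R was -0.68 (adjusted p = 0.28) without MCAO/R + WT replicate 1, -1.28 (0.087) without MCAO/R + WT replicate 2 and -0.91 (0.074) without MCAO/R + Lrg1-/- replicate 1, and that after sham surgery was -0.83 (0.106) without sham + WT replicate 2 and -0.89 (0.067) without sham + Lrg1-/- replicate 5. It was larger where cells were asked to hold at least 1% of their UMIs in Ttr, at -1.58 (adjusted p = 0.012) and -1.42 (adjusted p = 0.0089). Traces of Ttr in other cells differed between genotypes, with 98.99 to 517 CPM in microglia of WT and 3369 to 13560 in those of Lrg1-/- libraries. The cut therefore need not remove the same cells in both, and its part in the larger value was not tested.

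**Figure D2:**
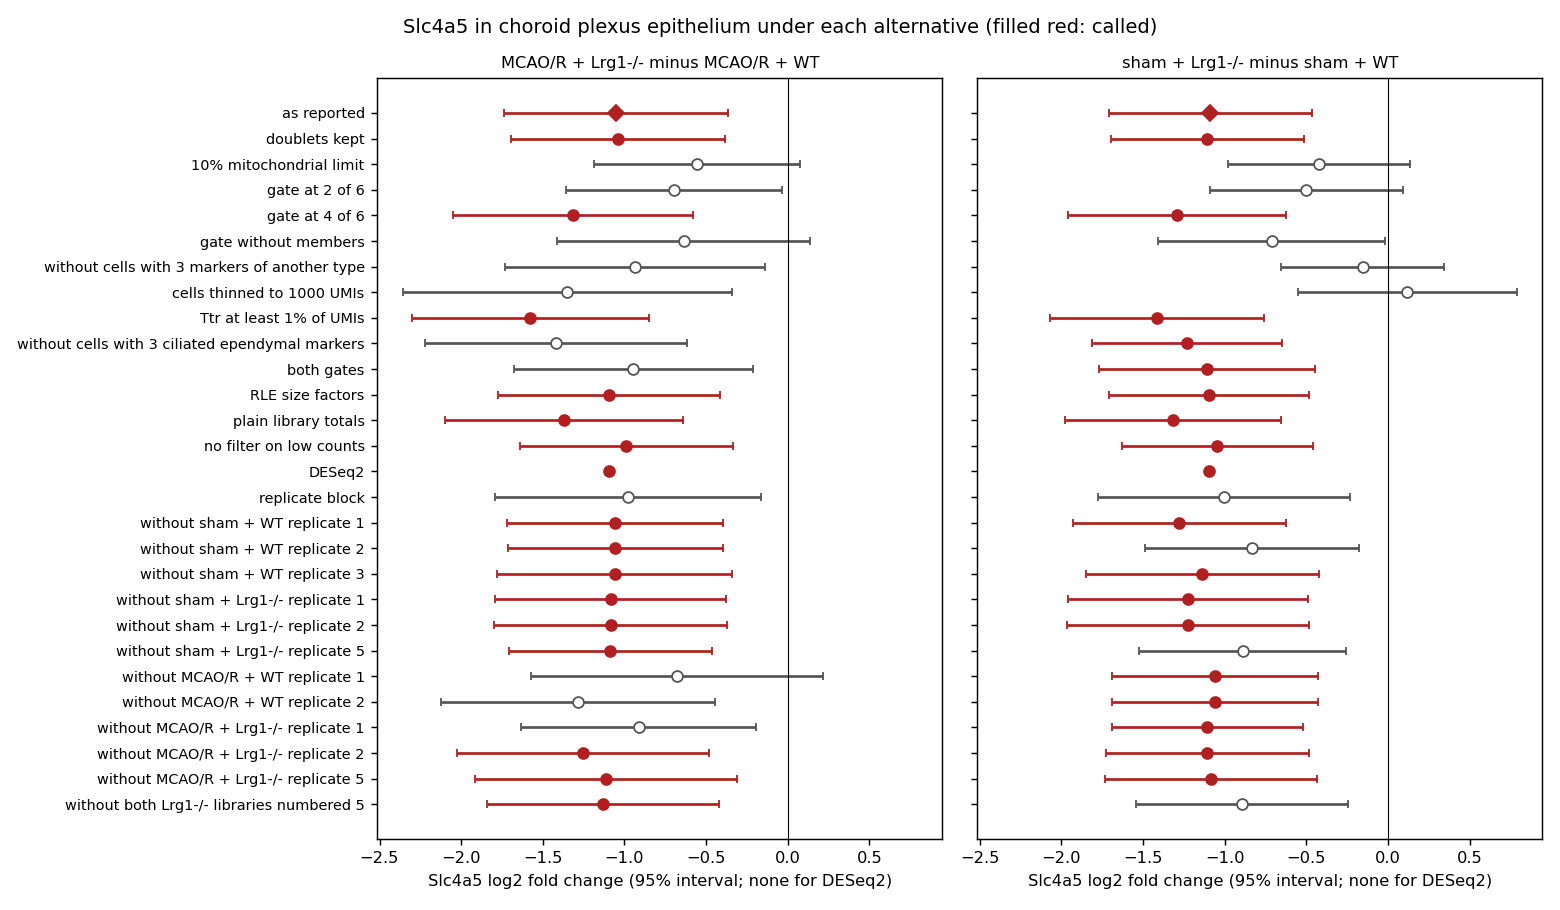
Difference in Slc4a5 in choroid plexus epithelium between genotypes (x axis, log2 fold change of Lrg1-/- minus WT, with 95% intervals, none for DESeq2), after MCAO/R (left) and after sham surgery (right), as reported and under each alternative choice of cells, scaling, test or libraries. Filled red symbols were called and open symbols were not; all values after MCAO/R are negative, and after sham surgery the value for thinned cells is 0.12.

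The cells in the 2 genotypes' sums differed in other measured ways. Gated cells with under 1% of their UMIs in Ttr numbered 498, 62 in WT and 436 in Lrg1-/- libraries, and they took 12.9% to 36.5% of the summed UMIs in WT libraries against 3.53% to 21.5% in Lrg1-/- libraries. They held Ttr at a median of 0.00891% to 0.0467% of UMIs in WT and 0.230% to 0.568% in Lrg1-/- libraries, so that the limit of 1% need not part like cells in both. Between 66.7% and 100% of them carried at least 3 markers of ciliated ependymal cells in WT libraries, and between 11.0% and 51.3% in Lrg1-/- libraries. The summed ependymal markers stood at 650 to 1477 CPM in WT and at 295 to 614 in Lrg1-/- choroid sums. The median mitochondrial share was 4.63% to 6.84% in WT and 2.73% to 4.43% in Lrg1-/- libraries. Red blood cell transcripts, which the epithelium does not make, moved the other way, with Hbb-bs at 4.23 to 9.97 CPM in WT and at 11137 to 45212 in Lrg1-/- sums. The part of these differences in the Slc4a5 result was not tested beyond the alternatives above.

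Among the secreted members, Ttr encodes transthyretin, which carries thyroxine and, through retinol binding protein, retinol in the cerebrospinal fluid. It lies at chr18:20665280-20674321 on the plus strand. Its levels were 155735, 185006 and 166495 CPM in sham + WT, 180800, 179539 and 134074 in sham + Lrg1-/-, 128658 and 109056 in MCAO/R + WT and 133753, 164369 and 123170 in MCAO/R + Lrg1-/- libraries. The genotypes overlapped after both surgeries, and both MCAO/R + WT libraries were below all sham + WT libraries. Gated cells with under 1% of their UMIs in Ttr took 30.1% and 36.5% of the MCAO/R + WT sums, against 12.9% to 18.8% in sham + WT. The part of these cells in the WT surgery values of Ttr and of the other members was not tested, and values without them are given below. The difference between genotypes was 0.24 (95% interval -0.43 to 0.92, adjusted p = 0.597) after MCAO/R and -0.04 after sham surgery in edgeR's test, so that no difference in Ttr was detected, although the interval reaches 0.92 on the log2 scale.

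Enpp2 encodes autotaxin, the secreted enzyme that makes lysophosphatidic acid. It lies at chr15:54838901-54952892 on the minus strand and overlaps Gm26684 on the other strand. Its levels were 9217, 11416 and 9710 CPM in sham + WT libraries and 8133, 7099 and 3681 in sham + Lrg1-/- libraries, with no overlap between them. After MCAO/R they were 8945 and 6291 in WT and 4827, 7503 and 6074 in Lrg1-/- libraries, which overlapped. The sham difference of -0.68 (SE 0.30, 95% interval -1.33 to -0.03) had an unadjusted interval without 0 and did not pass adjustment over all genes (adjusted p = 0.121, edgeR).

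Kl encodes Klotho, a membrane protein with a shed form that acts as a coreceptor for FGF23. It lies at chr5:150952607-150993817 on the plus strand. Its levels were 586, 677 and 612 CPM in sham + WT, 536, 459 and 211 in sham + Lrg1-/-, 357 and 299 in MCAO/R + WT and 217, 352 and 241 in MCAO/R + Lrg1-/- libraries. The 3 sham + WT libraries were the highest of all 11, and the MCAO/R groups overlapped each other. Kl differed by -0.93 (SE 0.34, 95% interval -1.67 to -0.18, adjusted p = 0.191) between MCAO/R + WT and sham + WT and by -0.57 (SE 0.30, adjusted p = 0.361) between the Lrg1-/- groups, neither of which was called by edgeR.

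Folr1 encodes the alpha folate receptor, which carries folate across this epithelium into the ventricle. It lies at chr7:101858331-101870788 on the minus strand and overlaps Anapc15 on the other strand. Its levels were 600.5, 701 and 687 CPM in sham + WT, 829, 789 and 517 in sham + Lrg1-/-, 496 and 459 in MCAO/R + WT and 559, 616 and 562 in MCAO/R + Lrg1-/- libraries. It was the 1 member with every MCAO/R + Lrg1-/- library above every MCAO/R + WT library, by 0.28 (95% interval -0.21 to 0.76), which was not called (adjusted p = 0.382, edgeR).

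Both potassium channel genes overlapped between genotypes after MCAO/R, and both were below the sham + WT libraries in the MCAO/R + WT libraries by values that did not pass the test. Kcnj13 encodes the inward rectifier potassium channel Kir7.1, and Kcne2 a small potassium channel subunit that forms complexes at the apical membrane. Kcnj13 (chr1:87386363-87394729, minus strand, overlapping Gigyf2 on the other strand) stood at 614, 559 and 618 CPM in sham + WT, 531, 538 and 284 in sham + Lrg1-/-, 337 and 284 in MCAO/R + WT and 373, 393 and 302 in MCAO/R + Lrg1-/- libraries. Kcne2 (chr16:92292389-92298129, plus strand) stood at 217, 314 and 248, at 205, 203 and 100.006, at 130 and 75.8, and at 177, 142 and 87.1 in the same order. For both genes the sham + WT libraries were above all libraries of the sham + Lrg1-/- and of the MCAO/R + WT groups. Between MCAO/R + WT and sham + WT, Kcne2 differed by -1.32 (SE 0.38, 95% interval -2.15 to -0.49) and Kcnj13 by -0.94 (SE 0.27, 95% interval -1.53 to -0.35), and both had an adjusted p of 0.122 in edgeR's test.

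Aqp1 encodes the apical water channel, and Clic6 an intracellular chloride channel protein. Aqp1 (chr6:55336432-55348555, plus strand) was the lowest member, at 69.9, 97.4 and 73.0 CPM in sham + WT, 58.1, 60.8 and 34.1 in sham + Lrg1-/-, 55.8 and 38.3 in MCAO/R + WT and 39.1, 51.2 and 48.4 in MCAO/R + Lrg1-/- libraries. The sham + WT libraries were above all others. The sham difference between genotypes was -0.65 (SE 0.24, 95% interval -1.18 to -0.13, adjusted p = 0.0723) and was not called. Clic6 (chr16:92485736-92541243, plus strand, overlapping 2410124H12Rik on the same strand) ranged from 146 to 384 over all libraries, its groups overlapped in every comparison, and its differences lay between -0.30 and 0.09.

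Otx2 lies at chr14:48657677-48673819 on the minus strand, where it overlaps Otx2os1 on the other strand and Gm49154 on the same strand. Its levels were 163, 172 and 155 CPM in sham + WT, 169, 119 and 61.7 in sham + Lrg1-/-, 137 and 94.6 in MCAO/R + WT and 83.7, 105 and 110 in MCAO/R + Lrg1-/- libraries. Both MCAO/R + WT libraries were below the sham + WT libraries, and the genotypes overlapped after both surgeries. Its differences, from -0.49 to -0.23 on the log2 scale over the 4 comparisons, were not called.

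Over the 10 members, 6 were lower and 4 higher in MCAO/R + Lrg1-/- than in MCAO/R + WT, with a median difference of -0.05 against 0.09 over all genes tested. The libraries did not overlap for 1 lower and 1 higher member, where 57.9% of all genes tested did not overlap in this comparison (26.1% lower). After sham surgery 9 were lower in Lrg1-/- libraries, 6 of them with no overlap against 44.9% of all genes (20.3% lower), and the median was -0.55 against 0.05 over all genes. Sham + Lrg1-/- replicate 5 was the lowest of its group for all 10. Slc4a5 was the 1 member called in either. Under other settings Folr1 was called higher in Lrg1-/- after sham surgery with the gate at 2 of 6 genes (0.61, adjusted p = 0.0355, edgeR), and Aqp1, Enpp2, Kcne2 and Otx2 were called lower under 1 to 3 settings each. The number of all genes called after sham surgery ranged from 42 to 6590 over the settings. Each setting therefore has its own share of all genes called, which is not given beside these calls. These calls are not read as a result about the members. Of the 9 members that were not called, 3 after MCAO/R and 5 after sham surgery had a 95% interval that reached past a 2-fold change, so that a difference of that size lies within those intervals.

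Surgery in WT mice gave negative differences for 9 members, 8 of them with no overlap against 38% of all genes (19.1% lower), with a median over the 10 of -0.50 against 0 over all genes, and Slc4a5 stood at -0.000363. None was called, where 0.643% of all genes were, and 4 members (Kcne2, Kcnj13, Kl and Aqp1) had an unadjusted p below 0.05 (3027 of 17102 genes did). DESeq2 called 2 members, Kcnj13 and Kcne2, in this comparison. The 0.643% is the share called by edgeR, and at most 639 of all genes were called here under any alternative, DESeq2 among them. The cells in the WT sums also shifted with surgery. Gated cells with under 1% of their UMIs in Ttr took 12.9% to 18.8% of the summed UMIs in sham + WT and 30.1% and 36.5% in MCAO/R + WT libraries. Without these cells the differences lay between -0.90 for Kcne2 and 0.43 for Slc4a5, with Ttr at -0.07, Folr1 at -0.07, Enpp2 at 0.02 and Clic6 at 0.25. This choice of cells uses Ttr, itself a member, so that it sets a part of the Ttr value and may move members that go with Ttr. The part of these cells in the differences was not tested. Over 27 alternatives Slc4a5 changed sign in 19 and Clic6 in 7, and Ttr, Enpp2, Otx2 and Aqp1 in 1 each. Surgery in Lrg1-/- mice gave 8 negative differences with a median of -0.23, all groups overlapped where 18.8% of all genes did not, and none was called against 1.27% of all genes, nor had any an unadjusted p below 0.05. The interaction was positive for all 10 members, from 0.03 for Slc4a5 to 1.001 for Kcne2 (95% interval -0.07 to 2.07, adjusted p = 0.707), and no gene passed it in edgeR's test (0% of 17102; 1226 had an unadjusted p below 0.05 and DESeq2 called 25). Its sign turned for Slc4a5 in 14 of 27 alternatives, for Folr1, Otx2 and Clic6 in 5 each and for Kl, Aqp1, Enpp2 and Ttr in 1 each. The comparisons share their control libraries, so that their directions are not independent of one another.

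**Figure D3:**
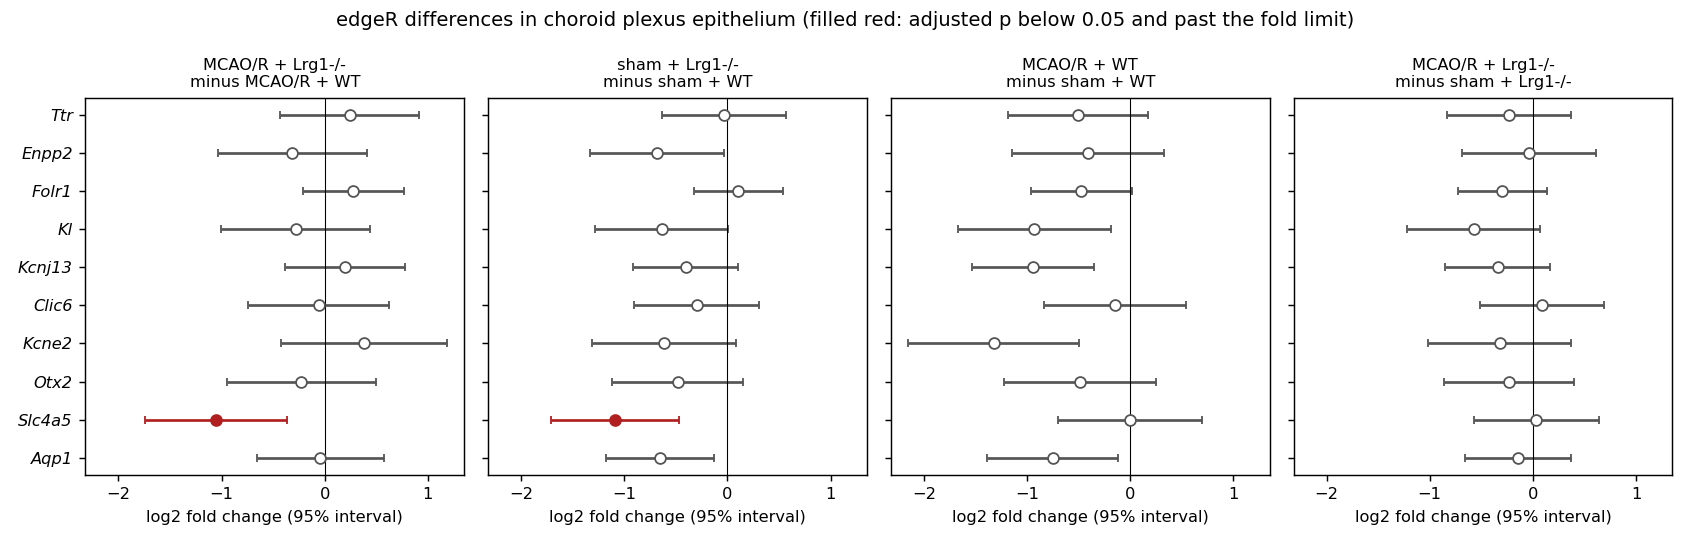
Difference in each of the 10 genes in choroid plexus epithelium (x axis, log2 fold change with 95% interval, edgeR) between the groups named above each panel. Filled red symbols were called (adjusted p below 0.05 and past the fold limit). Slc4a5 was called in both comparisons between genotypes, and all 10 points lie at or below 0 for MCAO/R + WT minus sham + WT.

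Other genes of the same epithelium were read from lists of known roles, since the members are a few of many carriers. Each count stands beside the 25.2% of all genes called in either direction after MCAO/R (12% lower) and the 21.1% after sham surgery (10.3% lower). The listed genes were read in the fit as reported only, and their values under the alternatives were not examined. Over those alternatives the number of all genes called ranged from 4 to 5950 after MCAO/R and from 42 to 6590 after sham surgery. Of 28 ion and water transport genes tested, 6 were lower and none higher in Lrg1-/- after MCAO/R, and 7 lower after sham surgery (21.4% and 25% of the list), with medians of -0.26 and -0.29. Trpm3, a steroid-activated cation channel, fell by 1.90 (SE 0.30, adjusted p = 0.00325) and 2.06 (SE 0.29, adjusted p = 0.00228) on the log2 scale, and stood at 2320 ± 598 (SD, n = 3) CPM in sham + WT against 557 ± 82.3 (SD, n = 3) in sham + Lrg1-/- sums. Slc4a10, a sodium bicarbonate transporter of the basolateral side, fell by 1.36 and 1.52, and Slc12a2, the sodium potassium chloride cotransporter NKCC1, by 0.99 and 0.89. Aqp4, a water channel of astrocytes and ependymal cells, fell by 1.66 and 1.95, and the summed ependymal markers were lower in the same sums, as given above.

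Of 28 nutrient and solute carriers, 7 were lower and 1 higher after MCAO/R, and 8 lower and 1 higher after sham surgery. Slc6a20a, an amino acid transporter, fell by 1.95 (SE 0.36, adjusted p = 0.00413) and 1.55 (SE 0.33, adjusted p = 0.0088). Slc23a2, the ascorbate transporter, fell by 1.65 and 1.27, and Lrp2, the endocytic receptor megalin, by 2.07 and 3.47. In either direction these were 28.6% and 32.1% of the list.

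Of 23 other secreted proteins tested, 1 was lower and 2 were higher after MCAO/R, and 3 lower and 2 higher after sham surgery (13.04% and 21.7% of the list). Wfikkn2, a secreted antagonist of growth and differentiation factors, stood at 28.1 ± 6.42 (SD, n = 3) CPM in sham + WT, 9.48 ± 1.36 (SD, n = 3) in sham + Lrg1-/-, 94.3 ± 14.9 (SD, n = 2) in MCAO/R + WT and 22.4 ± 8.08 (SD, n = 3) in MCAO/R + Lrg1-/- sums. It fell by 2.07 and 1.56 between genotypes, and rose after MCAO/R by 1.74 (adjusted p = 0.0279) in WT and by 1.23 (adjusted p = 0.0434) in Lrg1-/- libraries. Cst3, the protease inhibitor cystatin C, rose by 1.46 and 1.77 in Lrg1-/- sums. It is also abundant in microglia, whose summed markers stood at 369 to 875 CPM in WT and at 850 to 1987 in Lrg1-/- choroid sums, and the part of those transcripts in the Cst3 value was not tested.

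Of 13 identity transcription factors and multiciliary genes tested, 6 were lower and none higher in Lrg1-/- in both comparisons, 46.2% of the list. Gmnc, which starts the multiciliary programme, fell by 2.10 (SE 0.33, adjusted p = 0.00314) and 2.51 (SE 0.31, adjusted p = 0.00136). Lmx1a, a factor of the roof plate from which the choroid plexus forms, fell by 1.68 and 2.03, Rfx2 by 1.61 and 1.51 and Rfx4 by 2.49 and 2.01. These genes moved in the same direction as the summed ependymal markers in the same sums, and Otx2 was not among those called.

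Of 16 junction and polarity genes, 3 were lower after MCAO/R, and 4 were lower and 1 higher after sham surgery (18.8% and 31.25% of the list). The adhesion gene Cdh2 fell by 1.17 and 0.73 and the tight junction gene Cldn1 by 1.55 and 1.2. Of 24 inflammatory genes, 2 were higher and 2 lower after MCAO/R, the deleted Lrg1 among the lower, and 6 were higher and 1 lower after sham surgery (16.7% and 29.2% of the list), among the higher Cebpd (2.67) and Socs3 (1.55), both targets of interleukin 6 signalling. Summed neutrophil markers in the same sums stood at 0.848 to 5.49 CPM in sham + WT and at 152 to 720 in sham + Lrg1-/- libraries. Microglial markers stood at 521 to 875 and at 1063 to 1987. The part of such transcripts in the Cebpd and Socs3 values was not tested. Serpina3n, an acute phase protease inhibitor, rose after MCAO/R in both genotypes, by 6.74 (SE 0.66, adjusted p = 7.07e-04) in WT and by 7.14 (SE 0.51, adjusted p = 6.35e-05) in Lrg1-/- libraries. It went from between 0 and 1.19 CPM in the 6 sham libraries to 49.9 to 127 in the 5 MCAO/R libraries. Reactive astrocytes also express this gene, and the summed astrocyte markers in the same choroid sums stood at 212 to 363 CPM in sham + WT, 414 and 639 in MCAO/R + WT, 150 to 181 in sham + Lrg1-/- and 207 to 218 in MCAO/R + Lrg1-/- libraries. The part of astrocyte transcripts in the Serpina3n value was not tested.

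Of 15 genes induced by dissociation and stress, 3 were higher and 1 lower in Lrg1-/- after sham surgery (26.7% of the list), with Ier3 at 1.57 and Junb at 1.2 higher and Hspa1b at -2.27 lower. After MCAO/R 1 gene, Btg2, was lower (-0.77; 6.67% of the list). Of 15 abundant transcripts of other cell types, 12 were higher after MCAO/R and 11 after sham surgery and none was lower (80.0% and 73.3% of the list), with medians of 2.20 and 1.85. The 4 globin genes led them, Hbb-bs with 11.48 after MCAO/R and 11.73 after sham surgery. Together the 15 took 8206 to 10259 CPM in WT and 36909 to 121766 in Lrg1-/- choroid sums.

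The same 10 genes were then read in cells that should not make most of them, since droplets carry a trace of free RNA besides a cell's own. Microglia, the resident macrophages of the brain, were the largest of these types with 41767 cells. Their Ttr level was 354, 517 and 332 CPM in sham + WT libraries, 248 and 98.99 in MCAO/R + WT libraries, 13560.1, 12559 and 10846 in sham + Lrg1-/- libraries and 8767, 3369 and 5505 in MCAO/R + Lrg1-/- libraries. Every Lrg1-/- library was above every WT library. All 10 members were called higher in microglia of Lrg1-/- libraries after both surgeries, against 17% and 17.9% of the 19048 genes tested (32.6% and 36.5% in either direction).

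The size of that difference varied between members and was smallest for Slc4a5. In microglia Ttr rose by 4.97 (SE 0.50, adjusted p = 5.28e-05, edgeR) after MCAO/R and by 4.73 (SE 0.41) after sham surgery, Folr1 by 4.6 and 4.36, Clic6 by 4.30 and 4.09 and Kl by 4.38 and 3.77. Kcne2 rose by 5.02 and 3.91, Otx2 by 4.46 and 3.995, Aqp1 by 3.86 and 3.80, Enpp2 by 3.36 and 3.22 and Kcnj13 by 3.26 and 3.52. Slc4a5 rose by 2.04 (SE 0.31) and 2.38 (SE 0.26), the lowest in both comparisons. Whether Slc4a5 differed from the other members in this was not tested.

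A Ttr UMI was found in 99.98% to 100% of microglia of Lrg1-/- libraries and in 59.0% to 97.4% of those of WT libraries, at median depths of 2700 to 8780 and 7889 to 11848 UMIs per microglial cell. A Folr1 UMI was found in 10.3% to 16.2% of microglia of Lrg1-/- libraries and in 0.556% to 2.19% of WT libraries. In gated choroid plexus cells the corresponding share was 90.3% to 92.4% and 82.0% to 96.8%, at median depths of 4809 to 11930 and 4700 to 21267 UMIs. For Slc4a5, which 23.4% to 29.1% of Lrg1-/- and 32.9% to 51.6% of WT gated cells held, the share in microglia was 1.28% to 2.57% and 0.387% to 0.847%. In microglia of WT libraries the ratio of Slc4a5 to Ttr was 1.56 to 4.53 times that in choroid plexus epithelium, and whether the Slc4a5 UMIs there came from choroid plexus was not tested.

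Endothelium (22396 cells) and oligodendrocytes (14577 cells) carried the same genes. In endothelium all 10 were called higher in Lrg1-/- after MCAO/R, against 13.8% of 17296 genes (26.9% in either direction), and 9 after sham surgery, against 6.7% (15.7% in either direction). The exception was Aqp1, which endothelial cells outside the brain express, at 1.31 (adjusted p = 0.129). Endothelial Ttr was 348, 533 and 296 CPM in sham + WT, 242 and 103 in MCAO/R + WT, 7524, 6136 and 7768 in sham + Lrg1-/- and 8188, 3654 and 7231 in MCAO/R + Lrg1-/- libraries, again without overlap between genotypes.

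Oligodendrocytes make Enpp2 themselves, and there the gene did not follow the rest. Its level was 1566, 1759 and 1743 CPM in sham + WT, 1858, 1688 and 1666 in sham + Lrg1-/-, 692 and 762 in MCAO/R + WT and 1073, 879.6 and 888 in MCAO/R + Lrg1-/- libraries. The genotypes overlapped after sham surgery (0.06, adjusted p = 0.812), and after MCAO/R Enpp2 was higher in Lrg1-/- by 0.45 (SE 0.14, adjusted p = 0.0248), while Ttr in the same cells rose by 5.66 and 3.84. In all, 9 members were called higher after MCAO/R, against 19.2% of 16229 genes (37.1% in either direction), and 7 after sham surgery, against 4.65% (8.2% in either direction). Slc4a5 was called in neither (1.15, adjusted p = 0.179, and 0.43, adjusted p = 0.786), and Otx2 not after sham surgery (2.73, adjusted p = 0.0599). The shares of all genes called in other cell types also moved with single libraries. With each library left out, 333 to 1715 genes were called in oligodendrocytes after sham surgery, against 1331 with all libraries. In endothelium these counts were 1501 to 3238, against 2723.

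**Figure D4:**
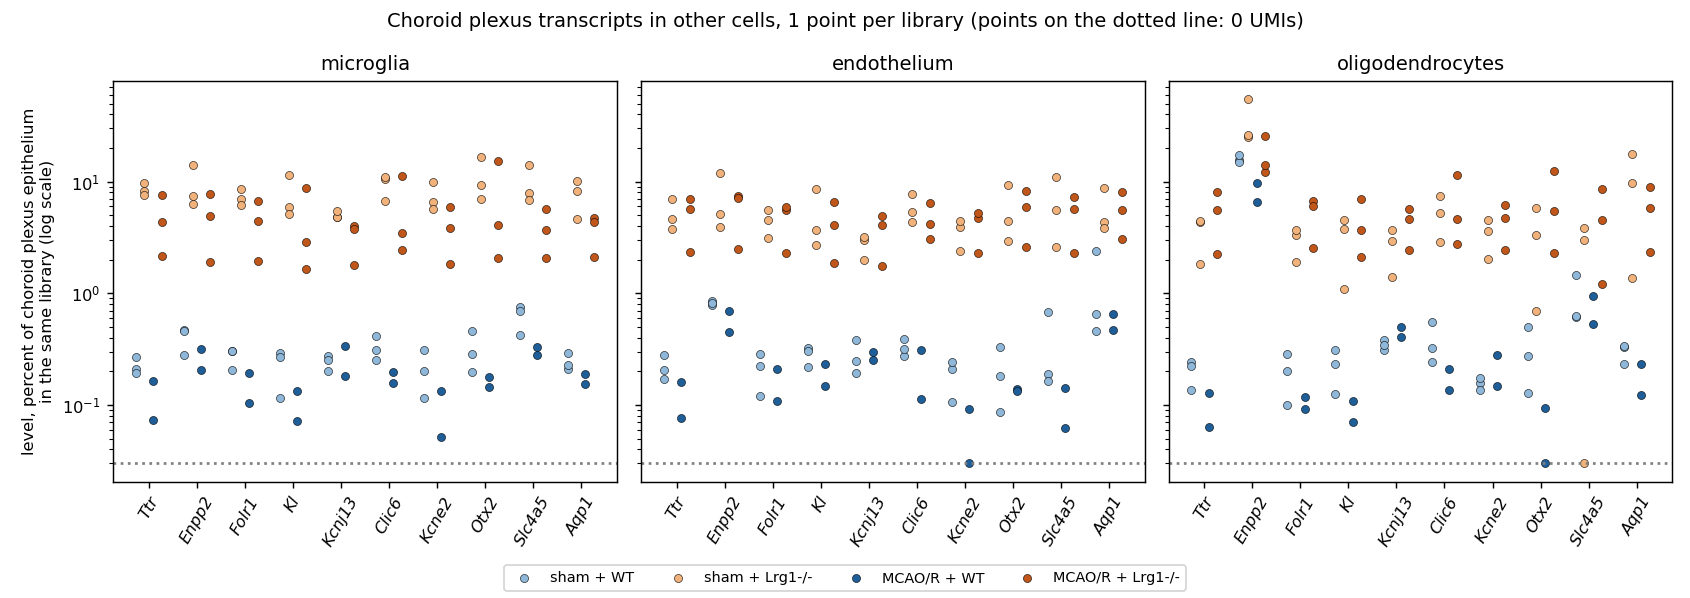
Level of each of the 10 genes in microglia, endothelium and oligodendrocytes as a percent of its level in choroid plexus epithelium of the same library (y axis, log scale), 1 point per library, colored by group. Points on the dotted line had 0 UMIs; Ttr in microglia lies between 2.15% and 9.77% in the Lrg1-/- libraries and between 0.0731% and 0.272% in the WT libraries.

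Set against the choroid plexus level of the same library, the traces of several genes lay in similar ranges. In microglia of Lrg1-/- libraries, Ttr stood at 2.15% to 9.77% of its choroid plexus level, Folr1 at 1.94% to 8.60% and Aqp1 at 2.13% to 10.2%. In WT libraries the corresponding values were 0.0731% to 0.272%, 0.103% to 0.306% and 0.154% to 0.293%. Free RNA of 1 source keeps its genes in the ratio of that source. In Lrg1-/- libraries the ratio of each of the other 9 genes to Ttr, divided by that ratio in choroid plexus epithelium, had a median between 0.607 and 1.13 in microglia and between 0.617 and 1.14 in endothelium, within 2-fold of 1 for all 9. In oligodendrocytes 8 of 9 were within 2-fold, and Enpp2 was at 5.59. Where the trace was smaller, in WT libraries, 8 of 9 were within 2-fold in microglia, with Slc4a5 at 3.57, 7 of 9 in endothelium, with Enpp2 at 4.16 and Aqp1 at 3.17, and 6 of 9 in oligodendrocytes, with Enpp2 at 66.8, Slc4a5 at 5.96 and Kcnj13 at 2.54. These are medians over 5 or 6 libraries and are given as a description. Folr1, Kl, Clic6 and Kcnj13 are also gate genes. The gate puts cells that hold them into the choroid plexus sums and keeps such cells out of the other types, so that it sets a part of their ratios.

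**Figure D5:**
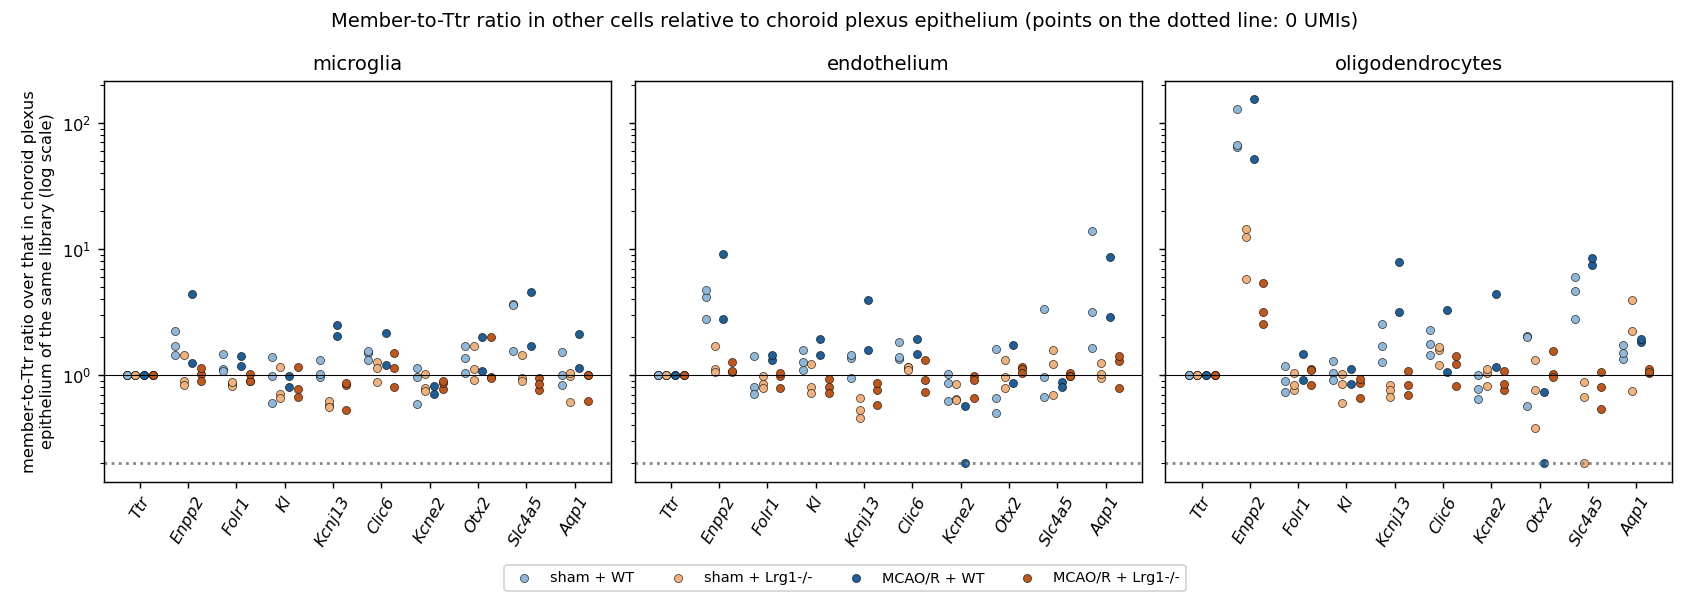
Ratio of each gene to Ttr in microglia, endothelium and oligodendrocytes divided by the same ratio in choroid plexus epithelium of the same library (y axis, log scale), 1 point per library, colored by group. Points on the dotted line had 0 UMIs of the gene; a value of 1 means that the gene and Ttr stand in the proportion found in choroid plexus, as most Lrg1-/- points in microglia and endothelium nearly do, and Enpp2 in oligodendrocytes has a median of 66.8 in WT and 5.59 in Lrg1-/- libraries.

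The cell type with the next highest median after choroid plexus was not the same for all members. It was ciliated ependymal cells for Folr1, Clic6 and Otx2, fibroblasts for Kl and Kcnj13, oligodendrocytes for Enpp2, endothelium for Aqp1, neutrophils for Slc4a5 and red cells with their precursors for Ttr and Kcne2. Ciliated ependymal cells held Folr1 at a median of 132 CPM over 9 libraries (range 104 to 203), Clic6 at 27.008 (range 14.4 to 58.7) and Otx2 at 57.8 (range 22.2 to 77.5), in WT as in Lrg1-/- libraries, while Ttr in the same cells ranged from 104 to 9176. Astrocytes held Otx2 at a median of 11.3 over 11 libraries (range 1.61 to 42.4), with a ratio to Ttr that was 2.83 to 50.4 times that in choroid plexus epithelium. Fibroblasts, measured in 4 libraries, held Kl at a median of 54.1 and Kcnj13 at 46.0 with Folr1 at a median of 0. Red cell precursors and red cells, measured in the 6 Lrg1-/- libraries, held Ttr at a median of 4764. The part of free RNA in these values was not tested.

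Over 116 sums of a library and a cell type, the genes outside the 10 whose log2 level followed the members most closely were Prr32 and Hemk1, each with a Pearson r of 0.93 to the mean of the members' standardized levels, and Slc16a8, Wfdc2 and Prlr, each with 0.92. These points share libraries and their free RNA, and the correlations, taken over 19987 genes, are descriptions. Prlr, the prolactin receptor, is 1 of the gate genes.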

How the data were processed

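The authors deposited, for each of 11 libraries, a matrix of raw UMI counts by gene and cell. The processing notes name mm10, STAR and Cell Ranger, the study's methods give Cell Ranger 5.0.0, and the matrix headers give 7.0.1. Cells with more than 500 genes, more than 1000 UMIs and under 25% mitochondrial UMIs were kept (132437 of 155804 barcodes). Doublets were scored with Scrublet in scanpy 1.11.5 (rate 0.06, exact neighbours, Python 3.11.15), by its automatic threshold in 6 libraries and as the highest 6% of scores in the other 5 (sham + WT replicate 1, sham + Lrg1-/- replicates 2 and 5, MCAO/R + Lrg1-/- replicates 1 and 5), where that threshold marked too few cells; 7324 were removed. The authors' cell type names were not used here. Cells outside the choroid plexus gate took the type with most of its 6 markers detected, at least 3.

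Counts were summed per library and type where at least 20 cells were present, and the 4 groups were fitted together with the quasi-likelihood test of edgeR 4.0.16 (R 4.3.3, TMM factors, the package's filter on low counts), with Benjamini-Hochberg adjustment over all genes tested. Called genes had an adjusted p below 0.05 and a natural-log fold change above 0.25. Shares of cells were compared on the log2 scale by exact permutation (scipy 1.17.1). The fit was tested on simulated data for the comparison of genotypes after MCAO/R, where it left most 2-fold changes uncalled. Ranges of depth and of UMIs per sum stand beside the results. Shares and UMI counts carry counting error besides the spread between libraries. The members, lists and tests were chosen with earlier results of these data known. Named were all members, Lrg1, at most 4 called genes per list with the lowest adjusted p, the 5 genes closest to the members' pattern, and a few transcripts of other types. Alternatives covered doublets, the mitochondrial limit, the gate, thinning, scaling, the count filter, DESeq2 1.42.0, a replicate block and left-out libraries. Settings that drop low-Ttr cells, drop cells with ependymal markers, ask for both gates or leave out both libraries numbered 5 were added after seeing the data. Promoters came from RefSeq and gene spans from GENCODE M21, both on GRCm38. Members that overlap another gene may share reads with it.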

Additional observations from a re-analysis of the deposited data

How the results depend on the processing

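Over 1350 combinations of a member, a comparison and an alternative in choroid plexus epithelium, 1166 kept their direction and their side of the threshold, 150 that were called in neither fit changed sign, 19 lost a call, 14 gained one and 1 turned a called value, that of Slc4a5 after sham surgery, to 0.12 with cells thinned to 1000 UMIs. In other cell types 8 of 1080 lost a call, 5 gained one, 4 that were called in neither fit changed sign and no called value turned.

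For MCAO/R + Lrg1-/- minus MCAO/R + WT, where 1 member was called, 0 members were called under the limit of 10% mitochondrial UMIs, the gate at 2 of 6 genes, the gate without members, without cells that held 3 markers of another type, with thinned cells, without cells with 3 ciliated ependymal markers and with both gates, and between 0 and 1 when each library was left out in turn. MCAO/R + WT replicate 2 had under 20 cells and left the fit under 3 of these (9 cells without other-type markers, 10 after thinning and 16 without ependymal markers), so that a lone library stood for its group. For sham + Lrg1-/- minus sham + WT, where 1 was called, the counts were 0 under the 10% limit, the gate without members, without cells with other-type markers, with thinned cells and without both libraries numbered 5, 2 with the gate at 4 of 6, 3 with plain library totals, 4 where Ttr made up at least 1% of UMIs, and 0 to 2 with each library left out. For MCAO/R + WT minus sham + WT, where 0 were called, 2 were called by DESeq2, 2 without both libraries numbered 5 and 0 to 1 with each library left out. For MCAO/R + Lrg1-/- minus sham + Lrg1-/-, where 0 were called, 1 (Kl) was called without cells with other-type markers. In oligodendrocytes after sham surgery, 7 members were called, and 4 to 8 with each library left out, with 4 without sham + Lrg1-/- replicate 1. In microglia all 10 members were called under each alternative tried after either surgery. The causes were not tested. The share of all genes called differed by setting and is not given beside these member counts. The counts are therefore not read as a result about the members.

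Counts over all genes depended on the setting and on single libraries. The 4306 genes called in choroid plexus epithelium between genotypes after MCAO/R ranged from 4 to 5950 over all alternatives and from 65 to 4724 with each library left out, and the 3605 after sham surgery from 42 to 6590 and from 1054 to 4394. The 110 called between surgeries in WT ranged from 0 to 639 and from 5 to 445 with each library left out, the 217 in Lrg1-/- from 25 to 1173 in both, and the interaction from 0 to 25 and from 0 to 4. The shares of gated cells kept their direction under 6 alternatives each, with log2 ratios of 3.80 to 4.82 between genotypes after MCAO/R and 2.70 to 4.50 after sham surgery, and of -1.93 to -1.34 between surgeries in WT and -1.52 to -0.57 in Lrg1-/- libraries. With each library left out, a choice made after seeing the data, these were 3.36 to 5.44, 3.9998 to 4.2005, -2.77 to -0.68 and -1.96 to -0.81 in the same order.

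The 13 pairs of libraries with the same replicate number had correlations of their deviations from -0.18 to 0.20 (median 0.04), with 2 above 0.1. For 32 other pairs these were -0.23 to 0.24 (median -0.02). Deviations from the mean of so few libraries depend on one another, so that these values cannot settle whether the numbers pair the libraries. With the replicate number as a block, 0 members were called between genotypes after MCAO/R (Slc4a5 -0.98, adjusted p = 0.079) and 0 after sham surgery (Slc4a5 -1.004, adjusted p = 0.083). Depth limits the members with few UMIs most, Aqp1 with as few as 45 in MCAO/R + WT replicate 2.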
